A study of Mus musculus with 4 samples.

Results

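A set of 9 genes of MHC class I antigen presentation were followed through single-cell RNA sequencing of DLA tumors: H2-K1, H2-D1, B2m, Tap1, Tap2, Tapbp, Nlrc5, H2-T23 and Calr. They were chosen by symbol, and all 9 were found among the 32285 genes of the count matrices. The tumors came from Swiss albino mice injected intraperitoneally with DLA (Dalton's lymphoma ascites) cells, and the mice of all groups carried the same transplanted line. Control 1 and Control 2 came from mice that the labels call untreated and the study's supplement calls vehicle controls, so whether these mice received the vehicle is not settled here. Treated 1 and Treated 2 came from mice given SP11, an inhibitor of the chaperone HSP90, by mouth once tumors had formed. Strain background beyond the albino stock, age and the number of animals behind each library were not given in the sources used here. Tumor tissue was digested to single cells, red cells were lysed, and each library was made with the 10x Genomics 3′ chemistry, in which reads are counted as unique molecular identifiers (UMIs).

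MHC class I molecules display peptides from inside a cell to CD8 T cells. A heavy chain (H2-K1 or H2-D1 in the mouse, or the non-classical H2-T23, which is read by NK cells) pairs with the light chain B2m. Tap1 and Tap2 form the transporter that carries peptides into the endoplasmic reticulum, where Tapbp (tapasin) and Calr (calreticulin) help the heavy chain to fold and load. Nlrc5 is the transactivator that acts at class I promoters, and interferon raises most of the pathway. Nearly all nucleated cells carry class I, leukocytes at high levels and red cells at low levels, and tumors often carry little of it.

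The promoters show what the members share before any expression value is considered. Start sites on GRCm38.p6, the assembly that the mm10 files use, were matched in a RefSeq table for 7 of the 9 members (not Tap2 and Nlrc5), and the 250 bases upstream of each were searched on both strands. The windows of H2-K1 (chr17:34000334-34000583, minus strand), H2-D1 (chr17:35262844-35263093, plus strand) and B2m (chr2:122147437-122147686, plus strand) are printed 5′ to 3′, because these 3 genes carry most of the results, with motif matches in capitals:
H2-K1: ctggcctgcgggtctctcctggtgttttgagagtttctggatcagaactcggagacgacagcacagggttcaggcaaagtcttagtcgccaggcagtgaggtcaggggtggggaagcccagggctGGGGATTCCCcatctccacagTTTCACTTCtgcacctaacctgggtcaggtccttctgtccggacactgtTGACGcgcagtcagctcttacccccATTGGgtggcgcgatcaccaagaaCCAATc
H2-D1: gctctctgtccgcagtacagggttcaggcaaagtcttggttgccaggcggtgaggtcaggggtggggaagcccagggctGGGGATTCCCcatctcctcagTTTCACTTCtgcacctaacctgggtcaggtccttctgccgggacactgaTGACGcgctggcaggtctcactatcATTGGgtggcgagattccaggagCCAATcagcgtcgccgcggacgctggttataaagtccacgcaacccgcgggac
B2m: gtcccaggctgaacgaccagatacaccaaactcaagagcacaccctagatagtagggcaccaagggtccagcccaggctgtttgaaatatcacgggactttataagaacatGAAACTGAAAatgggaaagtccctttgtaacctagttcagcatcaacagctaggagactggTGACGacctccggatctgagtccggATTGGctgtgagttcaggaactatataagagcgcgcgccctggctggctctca

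The capitals mark the κB sequence (GGGG followed by ATTCCC), an interferon-response sequence, the letters TGACG of the X2 box and the CCAAT box, which reads ATTGG on the opposite strand. The κB sequence, searched in this exact form alone, stood in H2-K1 and H2-D1 and in 28 of all 32851 promoter windows of that length (0.0852%). The windows of H2-K1 and H2-D1 are closely alike, so their matches are not independent of each other. The interferon-response sequence (GAA, 2 bases of any kind, GAAA) was found in H2-K1 and H2-D1 (on the opposite strand in the lines as printed) and in 6.31% of all windows, and its form with 1 more base (GAAA, 2 bases of any kind, GAAA) in B2m and H2-T23 and in 2.98% of all windows. TGACG was found in 4 of the 7 windows, those of H2-K1, H2-D1, B2m and Tap1, against 17.8% of all windows. A CCAAT box was found in 7 of 7, against 33.8% of all. H2-K1 and H2-D1 were identical at 179 of 206 aligned bases (86.9%) and B2m matched them at 55.4% and 53.9%. These matches are letters in a window, and binding was not measured.

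The files held 977, 595, 2277 and 1483 barcodes for Control 1 and Control 2 and then Treated 1 and Treated 2, the order kept for all sets of 4 values, and 916, 566, 1831 and 1091 of them were kept, with 9574906 to 13024964 UMIs per library. Tumor cells were those with at least 5 UMIs of the keratins Krt8 and Krt18 together, and they numbered 845, 528, 1256 and 582, or 92.2%, 93.3%, 68.6% and 53.3% of kept cells. The labels call the cells lymphoma. The keratin-positive cells held 1786 to 2804 CPM (counts per 1000000 UMIs) of 8 other epithelial genes, of which 1 had no UMI. They held 1.58 to 55.0 CPM of 12 lymphoid genes, of which 5, 8, 0 and 1 had no UMI in the 4 libraries. They are called tumor cells here by that gate. Immune classes required at most 1 keratin UMI and marker UMIs of exactly 1 class: macrophage/monocyte cells numbered 25, 12, 123 and 90, B cells 1, 0, 141 and 134, and T cells 8, 1, 14 and 75. Immune cells were shallow, with a median of 1148 to 2552 UMIs per macrophage/monocyte cell against 8891.5 to 19843 per tumor cell. Of all kept cells, 1315 carried a barcode that also occurred in another library, and results without them are given where they differ.

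In every library H2-K1, H2-D1 and B2m were lower in tumor cells than in macrophage/monocyte cells, H2-K1 and B2m by the most. Values are CPM of the class, with UMIs summed over its cells within a library. H2-K1 stood at 70.3, 71.4, 89.8 and 105 CPM in tumor cells of the 2 controls and then the 2 SP11 libraries, and at 833, 827, 790 and 1009 CPM in macrophage/monocyte cells. The tumor cells thus held 8.44%, 8.63%, 11.4% and 10.4% of the macrophage/monocyte level, and the ranges of the classes did not overlap. B2m stood at 35.9, 55.3, 39.3 and 47.2 CPM in tumor cells against 717, 999.9, 659 and 687 CPM in macrophage/monocyte cells, that is 5.00%, 5.53%, 5.97% and 6.86%. H2-D1 was the least reduced of the 3: tumor cells held 371, 471, 366 and 462 CPM against 1180.4, 1034, 1113 and 1413 CPM, or 31.4% to 45.5%. For these genes the 4 libraries gave the same order of classes, whichever mouse the cells came from.

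**Figure D1:**
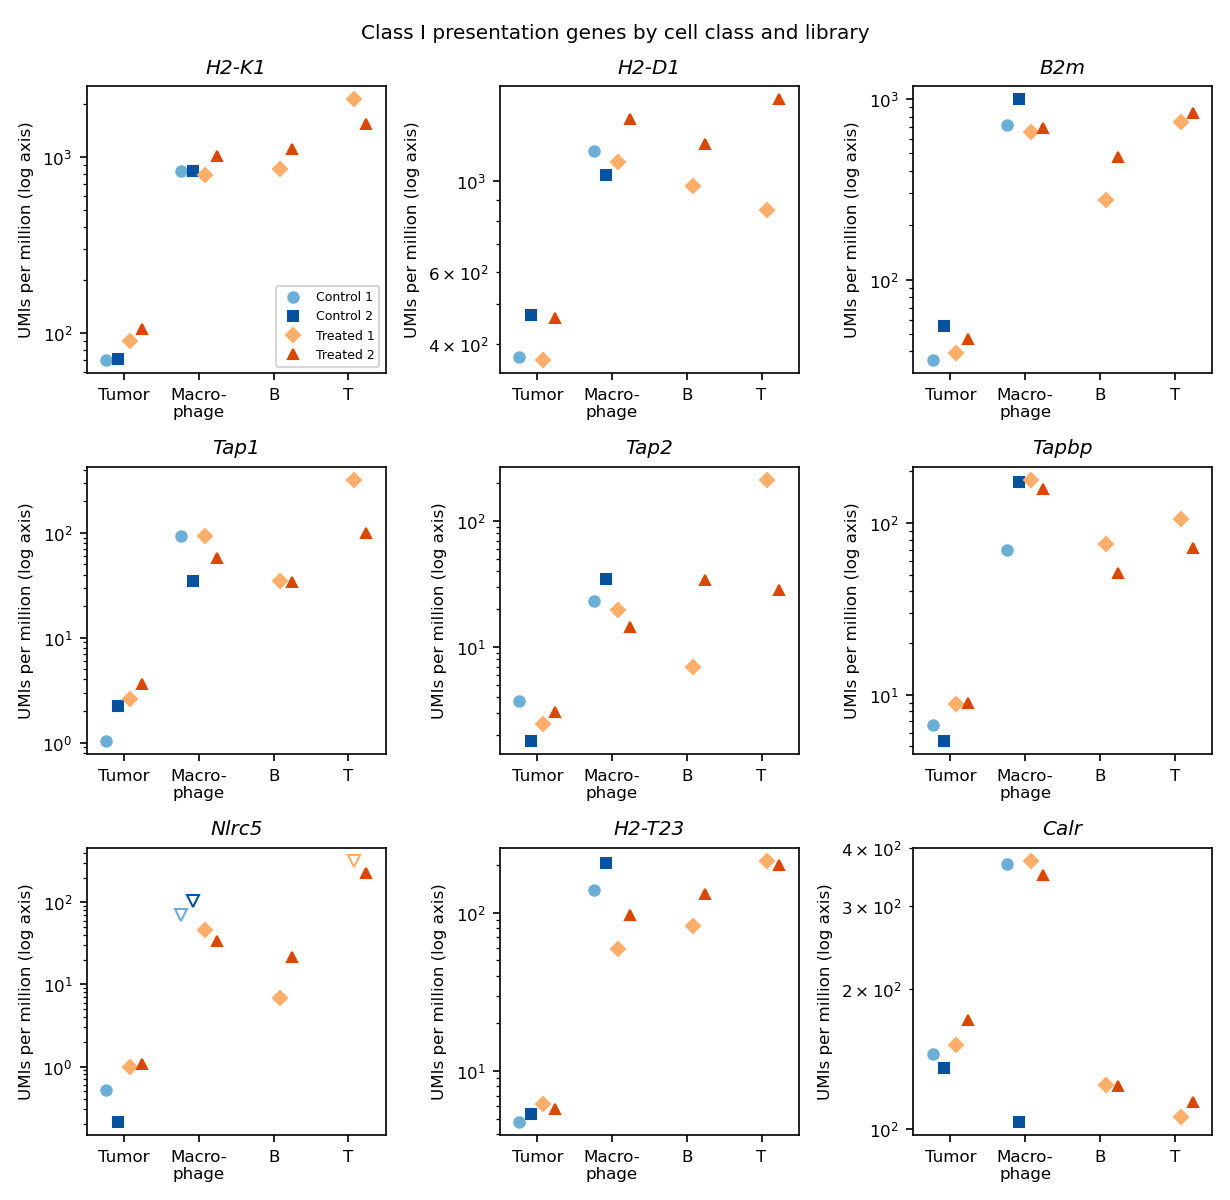
Level of the 9 members in tumor cells and in the macrophage/monocyte, B and T classes, in CPM of the class sum on a log axis, with 1 point per library holding at least 10 cells of the class. Tumor points lie below the immune points for H2-K1 (70.3 to 105 CPM against 790 CPM or more) and B2m, and overlap them for Calr.

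The peptide transporter and tapasin were at low counts in tumor cells. Tap1 gave 10, 21, 32 and 44 UMIs in the tumor cells of the 4 libraries (1.04, 2.22, 2.60 and 3.63 CPM) and 4, 1, 14 and 12 UMIs in the far smaller macrophage/monocyte sums (92.6, 34.5, 92.2 and 57.7 CPM). Tapbp stood at 6.63, 5.38, 8.79 and 8.99 CPM in tumor cells against 69.4, 172, 178 and 159 CPM. Tap2 stood at 3.73, 1.79, 2.44 and 3.05 CPM in tumor cells against 23.1, 34.5, 19.8 and 14.4 CPM. In each library all 3 were lower in tumor cells, but some macrophage/monocyte values rest on few UMIs: 1 for Tap1 in Control 2, 1 for Tap2 in each control, and 3 for Tap2 in each SP11 library and for Tapbp in Control 1.

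The non-classical heavy chain H2-T23 stood at 4.77, 5.38, 6.19 and 5.77 CPM in tumor cells and at 139, 207, 59.3 and 96.1 CPM in macrophage/monocyte cells. Nlrc5 gave 5, 2, 12 and 13 UMIs in tumor cells, at most 1.07 CPM. In macrophage/monocyte cells it gave 7 UMIs in each SP11 library (46.1 and 33.6 CPM) and 0 in both controls, where a count of 0 allows up to 69.4 and 103 CPM. Calr, which is also a general chaperone, stood closest between the classes, with 144, 135, 151 and 172 CPM in tumor cells and 370, 103, 375 and 351 CPM in macrophage/monocyte cells. The Control 2 value of 103 CPM came from 3 UMIs, so the tumor level there, 130% of it against 39.0% to 48.9% in the other libraries, is poorly measured.

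The differences were tested with edgeR's quasi-likelihood test on class sums, with the library as a block. Against macrophage/monocyte cells 8 of 8 tested members were lower in tumor cells, where 15.0% of all 10298 genes tested were lower and 25.5% were higher. Nlrc5 did not pass the filter on low counts, and Tap1 and Tap2 passed it only with their macrophage/monocyte sums, where they are high. The other 6 met it by their tumor sums alone. The log2 differences were -3.79 for B2m (SE 0.24), -3.07 for H2-K1 (SE 0.23), -1.23 for H2-D1 (SE 0.19), -4.62 for Tap1 (SE 0.53), -4.05 for Tapbp (SE 0.37), -3.96 for H2-T23 (SE 0.42), -2.61 for Tap2 (SE 0.78) and -0.82 for Calr (SE 0.26). The weakest calls by edgeR were Calr (adjusted p = 0.00482) and Tap2 (adjusted p = 0.00324). Calr did not pass without Treated 1 (edgeR adjusted p = 0.180) or without Treated 2 (0.122), and the other 7 members kept their calls when any 1 library was left out. These tests remove differences in level between libraries through the block, and edgeR estimates much of the remaining spread from all genes together. The p-values and standard errors thus do not measure how the difference of a gene varied between mice. Nothing in the labels says whether same-group libraries came from separate mice. The study's methods speak of independent sample sets and its supplement of biological replicates, but neither gives the number of mice.

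**Figure D2:**
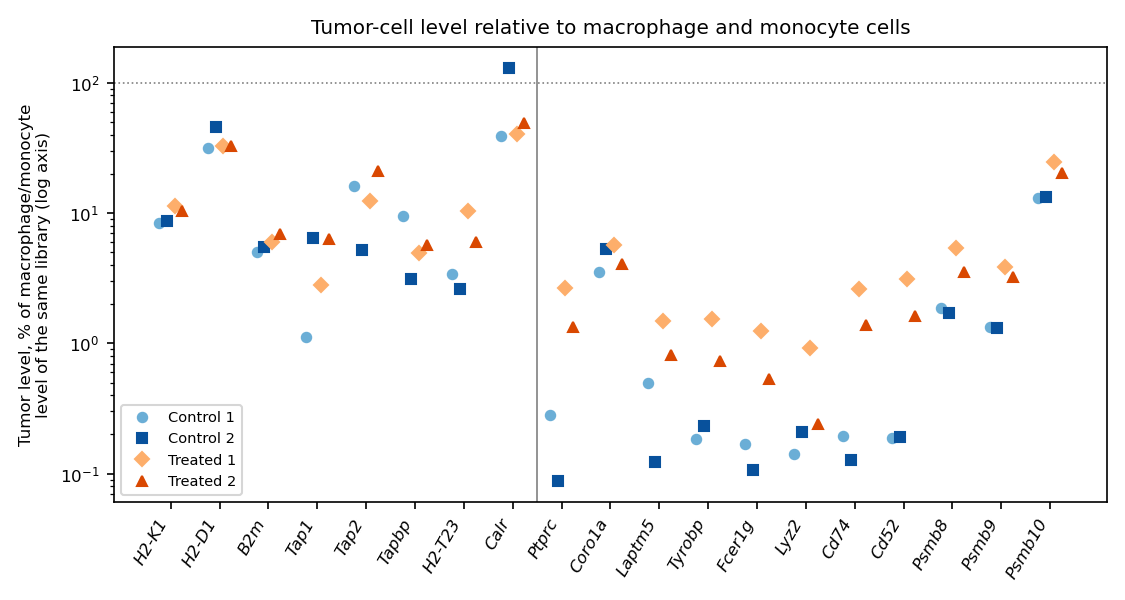
Tumor-cell level of each member except Nlrc5 as a percent of the macrophage/monocyte level in the same library, on a log axis with 1 point per library. Leukocyte genes and the proteasome genes Psmb8, Psmb9 and Psmb10 are drawn for reference. H2-D1 lies at 31.4% to 45.5% and B2m at 5.00% to 6.86%, whereas Ptprc lies at 0.0874% to 2.64%. S100a9 and Igkc, with no macrophage/monocyte UMI in the controls, are not drawn.

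Most members were also lower in tumor cells than in B cells. In Treated 1 and Treated 2, the libraries with enough B cells, H2-K1 stood at 847 and 1104 CPM, H2-D1 at 970.4 and 1232 CPM, B2m at 275 and 478 CPM and Tapbp at 75.7 and 51.2 CPM in B cells. All members except Calr, 8 of 9, were lower in tumor cells by edgeR, where 13.9% of all genes were lower and 19.8% were higher. The log2 differences ran from -4.18 for H2-T23 (SE 0.49) to -1.40 for H2-D1 (SE 0.14), with H2-K1 at -3.31 (SE 0.16), B2m at -3.11 (SE 0.21) and Nlrc5 at -3.83 (SE 1.08, edgeR adjusted p = 0.00185). Nlrc5 passed the count filter only through its B-cell sums, which held 1 and 5 UMIs, so its call adds little, and Tap2 held 1 and 8 UMIs there. Calr stood at 124 CPM in B cells of both libraries and gave 0.40 (SE 0.24, edgeR adjusted p = 0.194). Tap2 was the member whose call was lost under DESeq2 (adjusted p = 0.0619).

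T cells had the highest H2-K1 level of the immune classes with a test. In T cells of Treated 1 and Treated 2, H2-K1 stood at 2121 and 1526 CPM (20 and 107 UMIs), H2-D1 at 848 and 1583.5 CPM and B2m at 742 and 842 CPM. Only 14 T cells stood behind the first value of each pair. H2-K1 (-3.31, edgeR adjusted p = 3.02e-05), B2m (-3.39, 2.79e-05), Tap1 (-4.70, 0.00111) and H2-T23 (-4.47, 3.91e-05) were lower in tumor cells, 4 of 8 tested members where 3.33% of all genes were lower and 1.99% were higher. H2-D1 (-0.73, SE 0.67, edgeR adjusted p = 0.723), Tapbp (-2.48, 0.304), Tap2 (-3.61, 0.160) and Calr (1.22, 0.530) did not pass. With DESeq2, Tap2 (-3.82, adjusted p = 0.00125) and Tapbp (-2.52, 0.0182) passed. H2-D1 passed without the block (-1.11, edgeR adjusted p = 0.00387) and without scaling beyond the UMI total (-1.69, 2.58e-06), as did Tap2 and Tapbp. The B-cell and T-cell tests each rest on 2 libraries and the Treated mice, so they say nothing of the controls. Nlrc5, not tested against T cells, gave 16 UMIs in T cells of Treated 2 (228 CPM) and 0 in Treated 1.

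Smaller classes are given as values without a test. In the 12 dendritic cells of Treated 2, H2-K1 stood at 1548 CPM and H2-D1 at 1581 CPM. In the 40 neutrophils of that library, H2-K1 stood at 301 CPM (9 UMIs) and H2-D1 at 1506 CPM (45 UMIs). Barcodes with at least 50% hemoglobin UMIs stand for red cells, which hold little class I mRNA. In these, H2-K1 stood at 227 and 151 CPM in Treated 1 and Treated 2 (3 and 6 UMIs), against 89.8 and 105 CPM in tumor cells. H2-D1 stood at 151 and 454 CPM (2 and 18 UMIs), against 366 and 462 CPM in tumor cells. At these counts the hemoglobin barcodes lay above the tumor cells for H2-K1 and below them for H2-D1, by little in Treated 2. Hemoglobin makes up at least 50% of the UMIs of these barcodes by the gate, which lowers the CPM of every other gene. The order for H2-D1 therefore depends on counting hemoglobin UMIs in the total.

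Share-of-cells values after thinning gave the same order of tumor and macrophage/monocyte cells for H2-K1, B2m and H2-D1. Every cell was thinned to 1000 UMIs, and shallower cells were left out. H2-K1 was then detected in 7.58%, 8.14%, 8.30% and 8.09% of tumor cells and in 11 of 22, 5 of 12, 40 of 75 and 48 of 80 macrophage/monocyte cells, or 41.7% and more. B2m was detected in 3.43% to 4.13% of tumor cells and in 47.5% to 75.0% of macrophage/monocyte cells. H2-D1 was detected in 30.6% to 38.1% of tumor cells and in 64.0% to 68.75% of macrophage/monocyte cells. Hemoglobin barcodes of Treated 2, at a median of 2261 UMIs before thinning, held H2-K1 in 3 of 15 (exact 95% interval 4.33% to 48.1%) and H2-D1 in 40.0% (16.3% to 67.7%). These intervals cover counting error only, they include the tumor shares, and thinning removes most UMIs of the deeper tumor cells. Unthinned, Treated 2 held 5609 H2-D1 and 1276 H2-K1 UMIs in 582 tumor cells, and 18 and 6 in its 15 hemoglobin barcodes.

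Genes of leukocytes were also detected in tumor cells, and 10 of them are set beside the members. Ptprc (CD45) stood at 0.280%, 0.0874%, 2.64% and 1.33% of its macrophage/monocyte level in tumor cells, where H2-K1 stood at 8.44% to 11.4%. Lyz2, Tyrobp, Fcer1g, Laptm5, Cd74 and Cd52 stood at 0.106% to 3.12%, and Coro1a at 3.499% to 5.67%, near the values of B2m. In the SP11 libraries the neutrophil gene S100a9 stood at 44.1% and 71.3% and the immunoglobulin gene Igkc at 158% and 82.9%, on 5 to 21 macrophage/monocyte UMIs, and neither had such a UMI in the controls. Tumor cells held 135.6, 338.5, 11.5 and 20.3 H2-K1 UMIs per Ptprc UMI, against 4.5, 3.43, 2.67 and 2.59 in macrophage/monocyte cells, and the control ratios of tumor cells rest on only 5 and 2 Ptprc UMIs. The part of free RNA in the tumor-cell level of the members was not tested.

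H2-D1 and H2-K1 were not lowered in proportion. Tumor cells held 5.28, 6.59, 4.07 and 4.40 H2-D1 UMIs per H2-K1 UMI in the 4 libraries (exact 95% intervals 4.86 to 5.74, 6.08 to 7.16, 3.81 to 4.35 and 4.14 to 4.67). Macrophage/monocyte cells held 1.42, 1.25, 1.41 and 1.40, B cells 1.15 and 1.12, and T cells 0.400 and 1.04. No tumor library fell in the range of these 3 classes, but the 40 neutrophils of Treated 2, with 45 H2-D1 and 9 H2-K1 UMIs, lay within the range of the tumor cells. On the log2 scale the tumor ratio exceeded the macrophage/monocyte ratio by 1.87 ± 0.38 (SD, n = 4, range 1.53 to 2.40). An exact two-sided sign-flip test over libraries gave p = 0.125, the smallest that 4 libraries allow. Within tumor cells the ratio was lower in both SP11 libraries than in both controls. The heavy chains are near-identical copies in places, and mm10 carries the alleles of another strain than these Swiss albino mice, so reads could have been split or lost between H2-K1, H2-D1 and their relatives. Whether the DLA cells and the host mice carry the same H2 alleles was not given in the sources used here, and the part of alleles in the ratio was not tested.

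**Figure D3:**
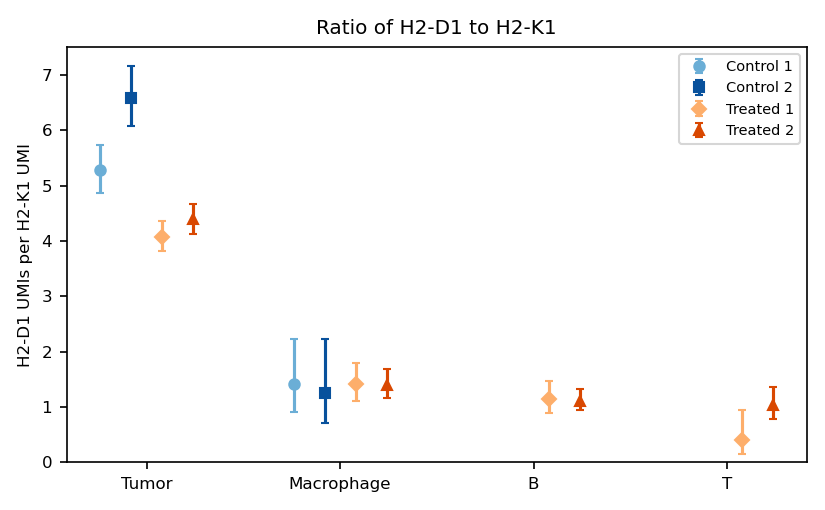
H2-D1 UMIs per H2-K1 UMI in tumor, macrophage/monocyte, B and T cells of each library with at least 10 cells of the class, with exact 95% intervals for counting error. Tumor cells lie at 4.07 to 6.59 and the 3 immune classes drawn at 0.400 to 1.42.

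The effect of SP11 was compared within tumor cells, within macrophage/monocyte cells and over all kept cells. Within tumor cells none of the 9 members passed edgeR's test between SP11 and control libraries, where 1.81% of 11588 genes were higher and 0.501% were lower. At an unadjusted p under 0.05 there were 4, where 1691 of the 11588 genes were, and DESeq2 called 0. H2-K1, whose 2 control values (70.3 and 71.4 CPM) lay below both SP11 values (89.8 and 105 CPM), averaged 70.9 ± 0.81 CPM in controls and 97.5 ± 10.9 CPM with SP11 (SD, n = 2 each). Its log2 difference was 0.33 (SE 0.12, edgeR adjusted p = 0.2001). It passed without scaling beyond the UMI total (0.46, edgeR adjusted p = 0.0499). It also passed when same-numbered libraries were blocked together (0.33, edgeR adjusted p = 0.0300), a pairing that the labels do not state. Over all alternatives its adjusted p ranged from 0.0300 to 0.699.

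Nlrc5 (1.33, SE 0.61), Tap1 (0.81, SE 0.38) and Tapbp (0.44, SE 0.20) were the other members with an unadjusted p under 0.05, at edgeR adjusted p = 0.321, 0.332 and 0.324. In each of them both SP11 libraries lay above both controls, at low counts: Nlrc5 rests on 2 to 13 UMIs per library and Tap1 on 10 to 44. The share of all genes with such a separation was not computed. H2-D1 overlapped between groups, at 421 ± 70.5 CPM in controls and 414 ± 68.4 CPM with SP11 (log2 difference -0.15, SE 0.14, edgeR adjusted p = 0.662). B2m (-0.20, SE 0.16, edgeR adjusted p = 0.599), Tap2 (-0.14, SE 0.35, 0.893), H2-T23 (0.11, SE 0.22, 0.864) and Calr (0.08, SE 0.12, 0.823) did not pass either. The members' median was 0.11 and that of all genes -0.00.

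Leukocyte genes moved with SP11 in the same tumor sums. The summed level of 10 leukocyte genes was 63.6, 52.4, 499 and 270 CPM in tumor cells of the 4 libraries, no gene of the list was at 0, and 9 of the 10 were called higher with SP11. The 4 hemoglobin genes summed to 267, 178, 10605 and 4735 CPM. Of the tumor cells, 2.84%, 4.73%, 11.6% and 14.8% also passed an immune or hemoglobin gate. Leaving out the tumor cells that held a UMI of any of 5 leukocyte genes kept 726 of 845 and 405 of 528 control cells but 492 of 1256 and 156 of 582 SP11 cells. In the cells kept, H2-K1 gave 0.24 (edgeR adjusted p = 0.699), Tapbp 0.04, H2-T23 -0.08 and Tap1 0.83, and Nlrc5 was under the count filter.

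The tumor cells were also split by leukocyte UMIs after thinning to 5000 UMIs per cell. Tumor cells with at least 1 leukocyte UMI made up 6.13%, 9.20%, 46.5% and 31.1% of the thinned tumor cells. H2-K1 stood at 71.5, 73.3, 76.3 and 110 CPM in tumor cells without a leukocyte UMI and at 118, 76.6, 104 and 133 CPM in those with one. Without a leukocyte UMI, Treated 1 thus lay close to the controls and Treated 2 lay above the other 3. H2-D1 was alike in both strata, at 366, 444, 367 and 468 CPM without and 371, 409, 376 and 477 CPM with a leukocyte UMI.

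**Figure D4:**
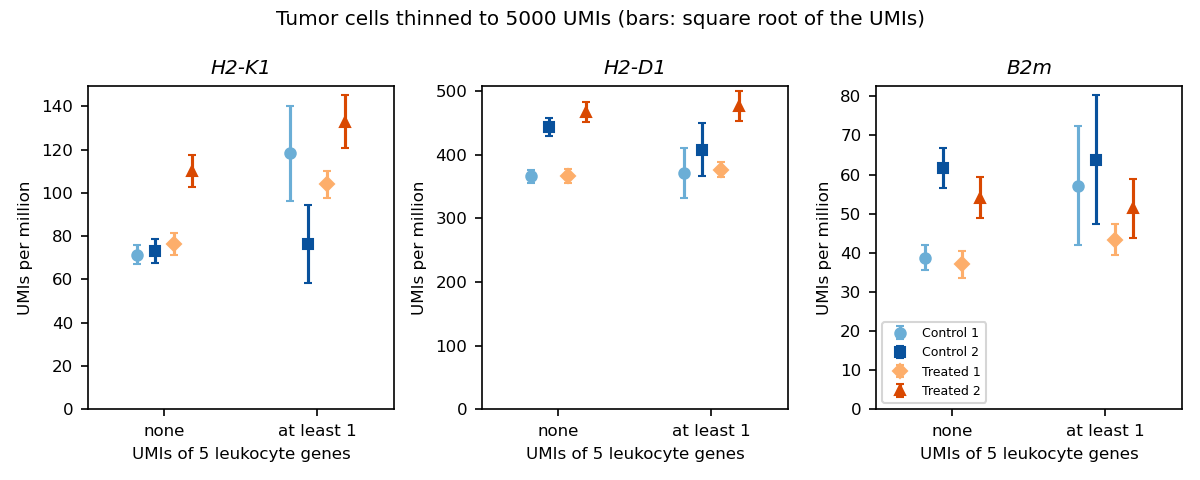
Level of H2-K1, H2-D1 and B2m in tumor cells thinned to 5000 UMIs, split by whether the cell held a UMI of 5 leukocyte genes, in CPM with 1 point per library. For H2-K1 the cells with a leukocyte UMI lie higher in each library (118, 76.6, 104 and 133 CPM against 71.5, 73.3, 76.3 and 110 CPM), and for H2-D1 the strata overlap.

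At that depth, H2-K1 was detected in 30.8% and 29.7% of control tumor cells and in 34.5% and 42.4% of SP11 tumor cells. The means were 30.3% and 38.5%, a difference of 8.196 percentage points, and an exact two-sided permutation test gave p = 0.3333, the smallest that 2 against 2 libraries allow. Without thinning the shares averaged 58.9% and 68.9%. The groups then overlapped, at 51.1% and 66.7% in controls and 53.3% and 84.4% with SP11. Calr (49.4% and 46.2% against 51.7% and 53.0%), Tapbp, H2-T23 and Tap1 also had both SP11 shares above both control shares, although with cells thinned to 2000 UMIs Tap1 did not. How many of all genes separate like this was not computed. H2-D1 was found in 82.8% to 89.9% and B2m in 17.5% to 26.6% of tumor cells, without separation.

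In macrophage/monocyte cells none of the 6 members tested passed between SP11 and control, where 2.83% of 1486 genes were higher and 1.55% were lower, and none had an unadjusted p under 0.05 (DESeq2 0). H2-K1 gave 0.29 (SE 0.24), H2-D1 0.35 (SE 0.21), B2m -0.15 (SE 0.25), Tapbp 0.75 (SE 0.54), H2-T23 -0.89 (SE 0.51) and Calr 0.65 (SE 0.42). The control sums held only 25 and 12 cells, and the standard errors are wide for that depth. The SP11 effect in macrophage/monocyte cells minus that in tumor cells was called for 0 of 9 members by edgeR, where 0.213% and 0.285% of 11244 genes were higher and lower, and DESeq2 also called 0. Only H2-D1 had an unadjusted p under 0.05 (0.57, SE 0.24, edgeR adjusted p = 0.764).

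Summed over all kept cells, 5 of the 9 members rose with SP11. H2-K1 stood at 75.7, 75.9, 121 and 165 CPM in the 2 controls and then the 2 SP11 libraries, a log2 difference of 0.75 (SE 0.14, edgeR adjusted p = 0.000778). Nlrc5 gave 7, 3, 29 and 57 UMIs (2.49, SE 0.49, 0.00145), and Tapbp went from 7.19 and 6.06 CPM to 13.8 and 14.6 CPM (0.94, SE 0.18, 0.00140). Tap1 (1.54 and 2.82 to 4.92 and 7.06 CPM) gave 1.30 (SE 0.31, 0.00703), and H2-T23 (5.85 and 6.58 to 9.23 and 12.8 CPM) gave 0.67 (SE 0.20, 0.0368). Of all 12149 genes tested, 9.11% were higher and 1.63% were lower.

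H2-D1 (-0.07, edgeR adjusted p = 0.821), Calr (0.08, 0.773), Tap2 (0.18, 0.783) and B2m (0.30, 0.300) did not pass in the whole suspension. B2m was at 40.4, 61.6, 57.8 and 81.8 CPM, so Control 2 overlapped with Treated 1. The calls of Tap1 and H2-T23 were the least firm: DESeq2 gave adjusted p = 0.0575 and 0.239, and without Treated 2 edgeR gave 0.0545 and 0.355. H2-T23 also missed without Control 1 (0.0977), with at least 500 genes per cell (0.124) and without called doublets (0.0754). B2m passed when same-numbered libraries were blocked together (0.31, edgeR adjusted p = 0.0481) and with leukocyte-UMI tumor cells left out (1.16, 0.0136). The latter setting removes tumor cells alone, and a larger part of them in the SP11 libraries. Immune cells then weigh more in the SP11 sums by design, so its value says nothing of levels within cells. The log2 difference of B2m was 0.61 without Control 2 and 0.48 without Treated 1, fits that leave 1 library in a group.

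**Figure D5:**
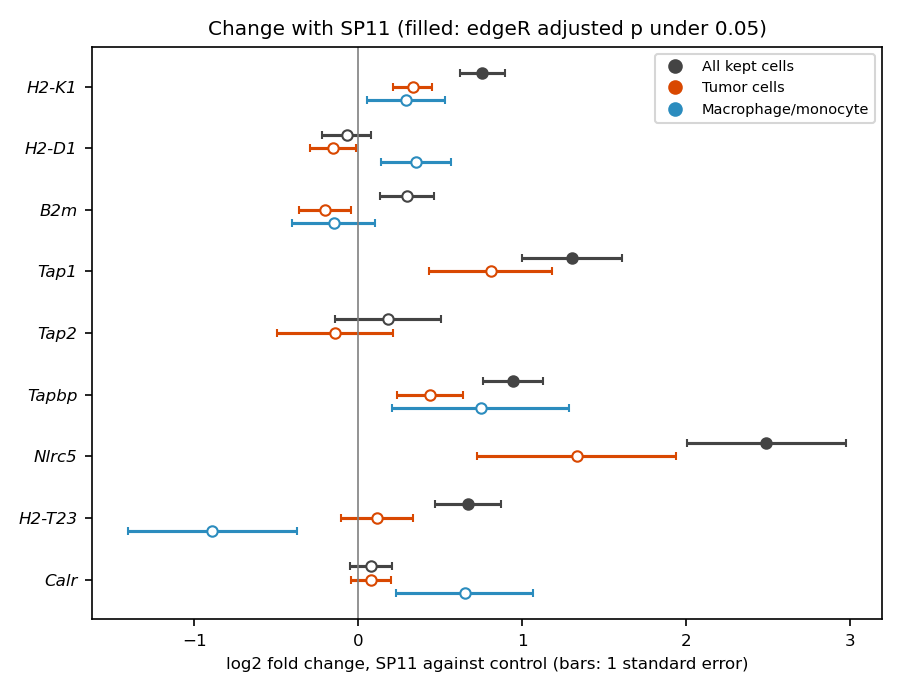
Log2 difference of each member between SP11 and control libraries in tumor cells, macrophage/monocyte cells and all kept cells, with bars of 1 standard error. In tumor cells 0 of 9 members passed, and over all kept cells 5 passed, with Nlrc5 at 2.49 and H2-K1 at 0.75.

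The source of the members' UMIs moved in the same direction. Tumor cells supplied 92.0%, 93.1%, 70.2% and 59.5% of the H2-K1 UMIs of all kept cells, while they supplied 99.0%, 99.0%, 94.5% and 93.1% of the UMIs of all genes. For B2m the tumor share went from 88.0% and 88.8% in controls to 64.2% and 53.7% with SP11, and for Nlrc5 from 71.4% and 66.7% to 41.4% and 22.8%. H2-D1 kept the highest tumor shares of the heavy chains, 97.7%, 98.1%, 88.8% and 83.7%. A change in the makeup of the suspension and a change within cells cannot be told apart in the whole-suspension sums.

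The wider pathway was described with lists for the other class I genes, peptide supply, peptide loading, regulators with interferon signalling, and chaperones of the endoplasmic reticulum lumen. Against macrophage/monocyte cells, where 15.0% of all genes were lower and 25.5% higher, tumor cells were lower for 6 of 12 tested genes of peptide supply and 4 of 5 other class I genes, with none higher. The largest differences were in the immunoproteasome subunits Psmb9 (-5.10) and Psmb8 (-4.79), in the neonatal Fc receptor Fcgrt (-7.02) and in H2-T22 (-4.83). Fcgrt and H2-T22 had too few UMIs in tumor cells to pass the count filter by the tumor sums alone, and a gene that entered only through the immune sums had to differ, so these list counts are a description of the genes that could be tested. Psmb8, the catalytic subunit that replaces its constitutive partner under interferon, stood at 15.5, 14.1, 24.7 and 17.2 CPM in tumor cells and at 833, 827, 461 and 485 CPM in macrophage/monocyte cells.

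Of 21 regulators and interferon genes, 13 were lower in tumor cells and 2 higher. Irf1 (-5.08), a transcription factor that interferon induces, was lower, whereas Rfxap (1.44) and Nfyb (1.17), subunits of the complexes that bind X and CCAAT boxes, were higher. Loading and folding genes differed less, with 1 of 8 lower (Sec61b, -1.30). Of 14 chaperones of the endoplasmic reticulum lumen 3 were higher, Creld2 (1.06) and Ppib (0.96) among them, and 1 was lower, P4hb (-1.13), counts no larger than the 25.5% and 15.0% of all genes would give.

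Against B cells, where 19.8% of all genes were higher and 13.9% lower, tumor cells were higher for 9 of 14 chaperones, led by Creld2 (1.52) and Hspa5 (1.42). They were higher for 5 of 9 loading and folding genes, led by Ero1l (2.74), and lower for Sec61b (-1.12). Peptide supply had 5 lower, led by Psmb8 (-4.90) and Psmb9 (-4.89), and 2 higher, Lap3 (3.03) and Psme3 (1.52). The other class I genes had 5 of 10 lower, led by H2-Q6 (-5.89) and H2-T22 (-4.21). The regulators had 12 of 21 lower, Irf9 (-4.23) among them, and 1 higher, Nfyb (1.53). Which listed genes passed the count filter only through their B-cell sums was not checked. These counts too are a description of the genes that could be tested.

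With SP11, Fcgrt was the only one called of 9 other class I genes within tumor cells. It gave 2, 3, 32 and 16 UMIs (2.74, SE 0.62, edgeR adjusted p = 0.0248). It did not pass with DESeq2 (0.155), and in tumor cells without a leukocyte UMI it was under the count filter. None of 12 peptide supply genes, 9 loading genes or 14 chaperones was called. Over all kept cells, where 9.11% of all genes were higher, 2 of 12 peptide supply genes (Psmb8, 1.19, and Psmb9, 1.10), 3 of 11 other class I genes and 6 of 21 regulators, Irf9 (2.68) and Irf1 (0.91) among them, were higher, and no loading gene or chaperone was called.

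The genes whose levels followed the classical class I genes most closely across classes and libraries were ranked by Pearson's r with the mean profile of H2-K1, H2-D1 and B2m. Over 16 sums of a class in a library and 7618 genes, Psmb8 came first (0.978), followed by Tmsb4x (0.960), Ptpn18 (0.956), Traf3 (0.954) and Lipa (0.937). Among the members outside the profile Tap1 reached 0.925, Tapbp 0.860, Tap2 0.851, H2-T23 0.655 and Nlrc5 0.590, and Calr 0.174. The sums share libraries and differ in depth between tumor and immune classes, so these values describe the order of the levels and carry no test.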

How the data were processed

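Single-cell 3′ RNA sequencing of 4 DLA tumor samples (2 control, 2 SP11) was analysed. The deposited matrices hold unnormalized UMI counts for each gene in each barcode, which the authors made with Cell Ranger 7.1.0 per the file headers. The submitters' processing notes name mm10, while the study's text names hg38 for its single-cell work. Cells with at least 200 genes and at most 10% mitochondrial UMIs were kept. Tumor cells had at least 5 Krt8 and Krt18 UMIs. Immune classes had at most 1 and passed exactly 1 gate: at least 2 UMIs of B (Cd79a, Cd79b, Ms4a1), T (Cd3d, Cd3e, Cd3g, Trac, Trbc1, Trbc2), macrophage/monocyte (Csf1r, Cd68, Adgre1, Fcgr1, C1qa, C1qb, C1qc, Ms4a6c, Ms4a7 and others) or dendritic (Flt3, Siglech, Xcr1, Clec9a, Ccr7, Zbtb46, Cd209a) genes, at least 10 UMIs of neutrophil genes (S100a8, S100a9, Retnlg), or at least 50% hemoglobin UMIs. Class names are those of the gates. Some genes of the gates and lists are not reported here.

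UMIs were summed per class and library, and sums of at least 10 cells were tested with edgeR 4.0.16 in R 4.3.3 (quasi-likelihood, TMM, filterByExpr, Benjamini-Hochberg over all genes tested, threshold 0.05). The code was tested on simulated data. Levels are CPM of the class sum. Exact intervals are at 95% and cover counting error only, and the floor of a count of 0 is 3 counts. Doublets were scored with Scrublet (scanpy 1.11.5) and left out only as an alternative. Named genes outside the members were those called with SP11 in tumor or macrophage/monocyte cells (at most 6 per list) and, between classes, the 2 highest and 2 lowest called per list, and the 5 most like the class I profile among genes with a mean of at least 10 CPM, on log2(CPM + 1). Alternatives covered filters, gates, doublets, scaling, DESeq2 1.42.0, blocks and left-out replicates. The members and lists were chosen with earlier results of these data known.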

Additional observations from a re-analysis of the deposited data

How the results depend on the processing

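Of 732 refits of a member under an alternative, 690 kept their direction and side of the threshold, 10 lost a call, 15 gained one and 17 changed sign; no member reversed in a comparison of tumor cells with an immune class. For every result with another value the cause was not tested. Within tumor cells 268 genes were called with SP11, against 137 without doublets, 178 without tumor cells passing an immune or hemoglobin gate, 72 without tumor cells with a leukocyte UMI, 149 with DESeq2 and 506 without scaling beyond the UMI total, and 78 to 425 with 1 replicate left out. Without scaling the median of all genes moved to 0.12 and the split went from 210 higher and 58 lower to 446 and 60; over all kept cells the median moved to 0.15 and the split from 1107 and 198 to 1507 and 89. One member, H2-K1, was then called in tumor cells (adjusted p = 0.0499). The labels do not say that replicate numbers pair the samples, and deviations of same-numbered samples correlated at 0.188 over 10719 genes. With the replicate block, tumor calls were 1038, H2-K1 was the 1 member called (adjusted p = 0.0300), macrophage/monocyte calls were 21 and those of all kept cells 2220, B2m among them (adjusted p = 0.0481). H2-K1 in tumor cells ranged from 0.0300 to 0.699 in adjusted p over all alternatives.

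For macrophage/monocyte cells, 65 genes were called with SP11, against 21 with gates of doubled UMIs, 22 with DESeq2 and 31 to 72 with 1 replicate left out. For all kept cells 1305 were called, 759 with DESeq2, and 5 members, 3 with DESeq2 and 3 to 6 with 1 replicate left out. Tumor against macrophage/monocyte cells gave 4176 calls, and 2398 to 4113 with 1 replicate left out; against B cells 3760, and 2159 with DESeq2; against T cells 569, and 1920 with no replicate block, where 7 members were called in place of 4, as without scaling (split 235 higher and 613 lower against 213 and 356). The difference of SP11 effects gave 56 calls, 16 with doubled gates, 31 without shared barcodes, 31 with DESeq2 and 28 to 41 with 1 replicate left out. Both SP11 shares of tumor cells lay above both control shares for 5 members after thinning to 5000 UMIs and 4 after thinning to 2000. The count was 1 without thinning and 2 for at least 2 UMIs, and it was larger with 1 replicate left out. The share of all genes that separated in this way was not computed, so these counts are not a result about the members.

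Reversed signs were all in uncalled differences. In tumor cells, H2-D1 gave 0.0036, B2m 0.12 (both without Control 2) and Tap2 0.50 (without Control 1), and H2-T23 -0.015 without gate-passing cells and -0.077 without leukocyte UMIs. In macrophage/monocyte cells, B2m gave 0.073 and Calr -0.10 without shared barcodes, and B2m 0.085 without a count filter. Over all kept cells, H2-D1 gave 0.21 without leukocyte-UMI tumor cells, 0.088 without scaling, 0.085 without Control 2 and 0.07 without Treated 1. Tap2 gave -0.24 and Calr -0.0015 without Control 2. The setting without leukocyte-UMI tumor cells removes tumor cells alone, so it also shifts the makeup of these sums. For the difference of effects, H2-K1 gave -0.034 with DESeq2 and -0.27 without scaling, and B2m -0.21 without scaling. With 1 replicate left out, the ranges were -0.30 to 0.00 for H2-D1, -0.47 to 0.12 for B2m and -0.59 to 0.50 for Tap2 in tumor cells, and -0.22 to 0.08 for H2-D1, -0.24 to 0.76 for Tap2 and -0.00 to 0.15 for Calr over all kept cells. The settings on leukocyte UMIs, shared barcodes, the doublet score of 0.2 and thinning to 1000 UMIs were chosen after seeing the data. Neutrophils (only 1 library with at least 10 cells), left-out replicates for B and T cells, and T cells under 500 genes or doubled gates could not be fitted. Depth limits Nlrc5, Tap1 and Tap2 most, at 2 to 44 UMIs per tumor sum.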
